A study of Mus musculus with 12 samples.

Results

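The coagulation and fibrinolysis genes described here are 9 genes chosen by symbol: Fga, Fgb and Fgg for the chains of fibrinogen, F2, F3, F7 and F10 for factors of the clotting cascade, Plg for plasminogen, and Serpinc1 for antithrombin. They were looked up by exact name in the gene entries of the young and old networks, out of 16197 gene names listed in either network. The rule uses their names and no measured value. The networks came from H3K27ac Hi-ChIP, which ligates neighbouring chromatin and then captures fragments carrying histone H3 acetylated at lysine 27, so that contacts between active promoters and enhancers are recovered. Hepatocytes were isolated by collagenase perfusion from male C57BL/6 mice of 5 months (young, 6 libraries) or 25 months (old, 6 libraries), with 3 technical batches of each of 2 biological replicates. Per the labels' protocols the digested cells were pelleted at low speed to take hepatocytes. No group carried an altered genotype or received a treatment. Young mice were bought from a commercial colony and old mice came from the aged colony of the US National Institute on Aging, so age and colony cannot be told apart. Only 1 network per age was analysed, with no replicate named, so every difference below is between 2 networks, has no replicate check and carries no p-value.

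A clotting cascade is a chain of liver-made proteases that activate one another until thrombin cuts fibrinogen into fibrin. Tissue factor starts the chain by binding factor VII, factor X and prothrombin follow, antithrombin inhibits several of the proteases, and plasmin, made from plasminogen, dissolves the fibrin. Hepatocytes are the main source of nearly all these plasma proteins, while tissue factor is a membrane receptor best known from cells around vessels, and the 3 fibrinogen genes lie side by side in 1 cluster.

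In each network the genome is divided into bins of 5 kb. The bins present in a network are its nodes, and the nodes are grouped into sets that the authors call cliques, each node in exactly 1 clique. Clique size is counted in nodes, and each clique comes with the gene names the authors listed for it. The young network held 56928 nodes in 5401 cliques with a mean of 10.5 nodes, and the old network 40304 nodes in 5973 cliques with a mean of 6.75. The number of reads behind either network is unknown, and a bin missing from a network may have been undetected. Of 8 hepatocyte markers 8 were listed in young and 7, all but Hnf4a, in old, and of 33 markers of 6 other cell types 4 were listed in young and 1 in old. No marker of Kupffer cells, lymphocytes or platelets was listed at either age.

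The promoters of 6 members are shown because of the bins they lie in: the 3 fibrinogen promoters lay in nodes of 1 clique at both ages, those of the neighbouring genes F7 and F10 lay in separate bins of which only that of F7 was a node, and that of F2 lay in a young node that the old network lacks. Each is the 250 bases before the start site, 5′ to 3′, from RefSeq on GRCm38.p6. Capitals mark the letters GTTAAT, part of the site of the hepatocyte factor HNF1, or CAAAGGTCA, a form of the HNF4 site, searched on both strands. All the matches were on the other strand, so the strand printed here reads ATTAAC or TGACCTTTG at them.
Fgg, chr3:83007474-83007723, plus strand: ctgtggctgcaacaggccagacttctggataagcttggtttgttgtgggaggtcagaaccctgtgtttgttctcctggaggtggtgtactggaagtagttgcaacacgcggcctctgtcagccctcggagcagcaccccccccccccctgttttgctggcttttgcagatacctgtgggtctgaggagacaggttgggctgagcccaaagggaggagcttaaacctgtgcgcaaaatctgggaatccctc
Fga, chr3:83025903-83026152, plus strand: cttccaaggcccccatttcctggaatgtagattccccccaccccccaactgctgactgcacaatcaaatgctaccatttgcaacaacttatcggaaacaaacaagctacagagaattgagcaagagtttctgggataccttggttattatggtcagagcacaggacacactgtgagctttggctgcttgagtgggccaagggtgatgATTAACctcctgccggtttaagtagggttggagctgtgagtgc
Fgb, chr3:83049864-83050113, minus strand: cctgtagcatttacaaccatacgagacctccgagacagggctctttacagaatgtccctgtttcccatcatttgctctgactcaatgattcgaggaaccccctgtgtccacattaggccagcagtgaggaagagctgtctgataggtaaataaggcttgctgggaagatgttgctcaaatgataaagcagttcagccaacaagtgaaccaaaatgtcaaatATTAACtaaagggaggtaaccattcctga
F7, chr8:13025784-13026033, plus strand: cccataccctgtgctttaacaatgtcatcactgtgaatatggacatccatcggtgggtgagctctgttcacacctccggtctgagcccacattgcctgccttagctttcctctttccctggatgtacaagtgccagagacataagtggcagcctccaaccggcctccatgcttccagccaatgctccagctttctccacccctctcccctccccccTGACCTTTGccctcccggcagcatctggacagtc
F10, chr8:13037058-13037307, plus strand: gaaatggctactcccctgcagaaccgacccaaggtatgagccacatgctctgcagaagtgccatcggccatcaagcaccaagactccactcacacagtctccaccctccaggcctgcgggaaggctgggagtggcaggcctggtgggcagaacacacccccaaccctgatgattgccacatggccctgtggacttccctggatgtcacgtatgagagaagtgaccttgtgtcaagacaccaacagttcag
F2, chr2:91636458-91636707, minus strand: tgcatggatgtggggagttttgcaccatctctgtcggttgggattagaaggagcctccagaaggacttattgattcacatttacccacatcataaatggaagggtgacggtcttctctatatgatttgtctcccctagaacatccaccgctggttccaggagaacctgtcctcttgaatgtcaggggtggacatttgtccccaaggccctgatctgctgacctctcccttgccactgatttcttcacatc

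Of the 9 members 8 matched the promoter table, and Plg had no entry. GTTAAT was present in the windows of Fga, 43 to 38 bases before the start, and Fgb, 29 to 24 bases before it, and in 6.43% of the 32851 promoter windows of the table. CAAAGGTCA was present in that of F7, 34 to 26 bases before the start, and in 0.426% of all windows. None of the 8 windows held CAAAGTCCA (0.384% of all windows), the C/EBP-type strings TTNNGNAAT (10.2%) or TTGCGCAA (0.164%), or TATAAA (12.4%). No letters of one match overlapped those of another. These are matches of letters and say nothing about binding. The F7 window lies inside the annotated span of the gene, which begins further upstream.

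The members split into a group that kept its clique and a group that did not. Fga, Fgb, Fgg and F7 were listed in cliques of nearly the same size and the same bins in young and old. Serpinc1 lay between, and Plg, F3 and F2 were each listed in a large young clique of which only a small part, or no listing at all, was left around the gene in old. F10 was listed at neither age.

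**Figure D1:**
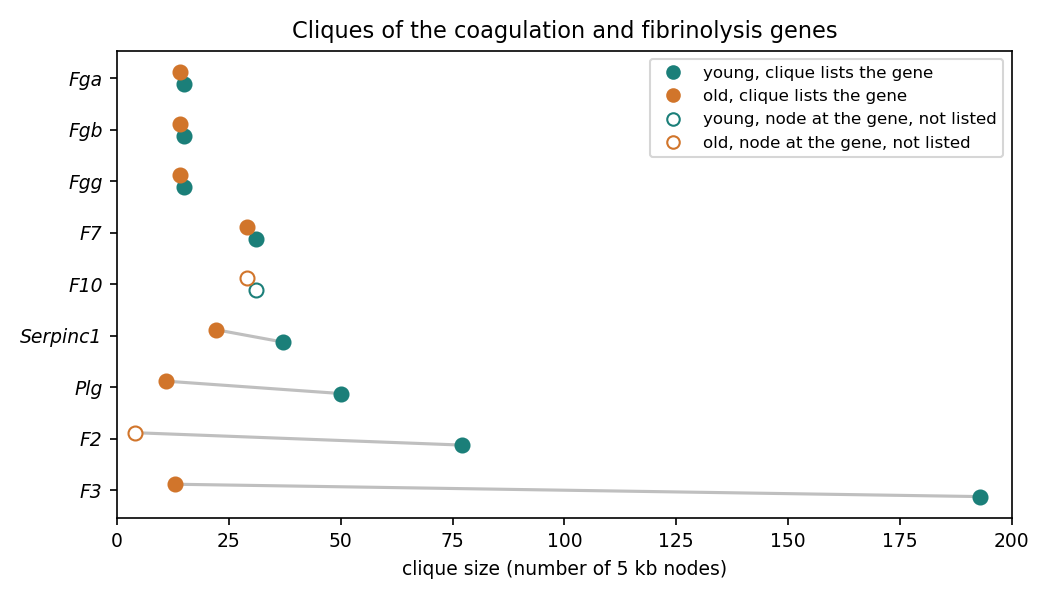
Clique size, as the number of 5 kb nodes, for each member in the young and the old network. Filled points are cliques that list the gene, open points the largest clique with a node in or within 2500 bp of a gene that no clique of that age lists. The fibrinogen genes and F7 have almost coinciding points, whereas F3 goes from 193 to 13 nodes and Plg from 50 to 11.

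Young cliques listed 8 of the 9 members and old cliques 7. Of the 9596 protein-coding genes listed at either age, young cliques listed 8690 and old cliques 7163. Counting F2 with no old clique, 8 of 8 listed members had fewer nodes in old, but relative to the mean clique size of each age 4 had less and 4 (Fga, Fgb, Fgg and F7) had more, where 58.6% of all genes had less. Without that scaling, 78.5% of the 9596 protein-coding genes listed at either age had the smaller value in old. A value at least 2-fold smaller, on the log2(nodes + 1) scale, was reached by 3 members, F2, F3 and Plg, beside 48.6% of all genes. No member had a value at least 2-fold larger, beside 11.9% of all genes. The median log2((old + 1)/(young + 1)) over the 7 members listed at both ages was -0.09, and over the 6257 such genes -0.63. That median leaves out F2 and counts the clique of the fibrinogen genes once per gene. With F2 taken as 0 in old it was -0.41, beside -0.93 over all genes. With 1 value per clique it was -1.41, and without the fibrinogen genes -2.09, both below -0.93. The median over all genes counts each gene, also where genes share a clique, so it is no like measure for -1.41. The value of -2.09 leaves out a clique that changed little. The members' median thus turns with how the fibrinogen clique is counted.

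Fibrinogen is the precursor of the fibrin clot, made of chains encoded by Fga (alpha), Fgb (beta) and Fgg (gamma). On chromosome 3 of mm10, Fgg spans 83007724 to 83015056 and Fga 83026153 to 83033627, both on the plus strand, and Fgb spans 83042246 to 83049863 on the minus strand. All 3 genes were listed in a single clique of 15 nodes in young and a single clique of 14 nodes in old. The young clique ran from 82995001 to 83085000 and the old from 82995001 to 83080000. The log2 value was -0.09, which turned to 0.34 relative to the mean clique size of each age. In this and every other scaled value the 1 was added after dividing, where it weighs more. Of the 16 bins in either, 13 were shared, a Jaccard index (shared bins divided by bins in either) of 0.812.

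Every bin of the fibrinogen genes themselves was kept. The shared bins included 12 in an unbroken row from 82995001 to 83055000, 60 kb that hold all 3 genes, their start sites and the intervals between them. The bins that differed lay beyond the start of Fgb. The bins 83070001 to 83075000 and 83080001 to 83085000 were nodes in young only, and 83065001 to 83070000 was a node in old only. No node of another clique lay within the span of the clique at either age, and besides the fibrinogen genes the only name listed was the long noncoding RNA Gm30097, at both ages. Of the 662 young cliques with 10 to 19 nodes, 21 had a best Jaccard index at or above that of the fibrinogen clique, itself included.

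**Figure D2:**
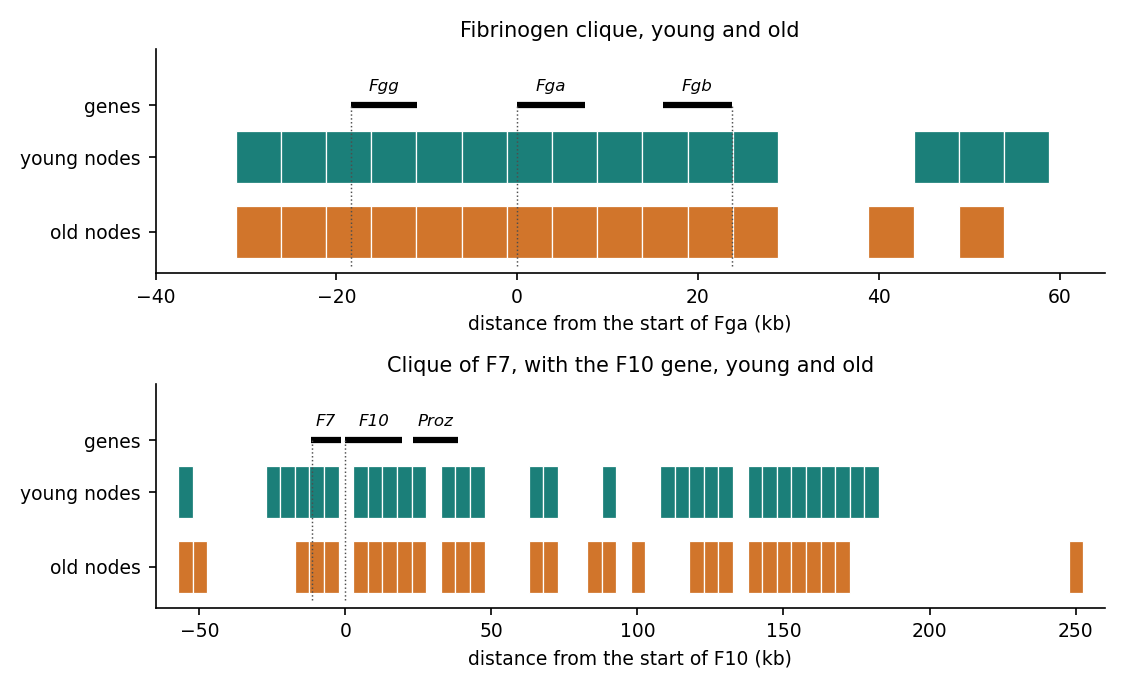
Nodes of the fibrinogen clique (top) and of the clique that lists F7 (bottom) in young and old, by distance in kb from the start of Fga or F10. Each box is a 5 kb node, black bars are genes and dotted lines the start sites of members. The 12 bins over the fibrinogen genes are present at both ages, and the F10 start site falls in a gap of both networks.

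Factor VII, which with tissue factor starts coagulation, is encoded by F7 (chromosome 8, 13025506 to 13035809), and factor X, the protease that then activates prothrombin, by F10 (13037308 to 13056676), directly downstream on the same strand. The clique that lists F7 counted 31 nodes in young against 29 in old, a log2 value of -0.09 that turned to 0.43 relative to the mean clique size of each age, and 25 of the 35 bins in either were shared, for a Jaccard index of 0.714. All 9 names listed beside F7 in young were listed with it in old. They include Proz, the gene of the vitamin K-dependent protein Z, at 37.6 kb, the RNA export gene Pcid2, the ubiquitin ligase gene Cul4a, the lysosomal membrane gene Lamp1 and Grtp1. Another 4 names joined in old, among them Dcun1d2 and Tmco3, which no young clique listed, and the old clique reached 13290000 where the young ended at 13220000.

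F10 itself was listed in neither network, although its gene body belonged to the F7 clique at both ages. Of the 6 bins that overlap F10 or the 2500 bp around it, 5 were nodes, the same 5 in young and in old, and all lay in the clique of 31 (young) or 29 (old) nodes. The missing bin was 13035001 to 13040000, which holds the start site of F10 at 13037308 and the end of F7. Its neighbours on either side were nodes at both ages. Of 14919 bins in the genome with both neighbours present at both ages, 1392 (9.33%) were likewise absent from both networks. By the nodes at the gene, then, F10 had the same sizes as F7, 31 and 29. Counted in this way all 9 members were in a clique at both ages, and 12882 protein-coding genes were in one at either age.

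Prothrombin, the precursor of thrombin, is encoded by F2 on the minus strand of chromosome 2, from 91612397 to 91636457. In young it was listed in a clique of 77 nodes that ran from 90845001 to 91665000 and listed 23 names, 19 of them protein-coding. No old clique listed F2, as was the case for 28.0% of the 8690 protein-coding genes listed in young. Of the 7 bins at the gene, young nodes were 4 and old nodes 2. The bin of the start site, 91635001 to 91640000, was a node in young and not in old, and so was 91625001 to 91630000. The 2 bins kept, 91615001 to 91620000 and 91630001 to 91635000, lay in an old clique of 4 nodes that listed Zfp408 and Arhgap1, the genes nearest to F2 among those listed with it in young.

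The rest of the young F2 clique lay in separate old cliques in order along the chromosome. Of its 77 bins 47 were in the old network (61.0%, 95% Wilson interval 49.9 to 71.2): 15 in a clique of 16 nodes from 90900001 to 91070000 with Celf1 and the proteasome gene Psmc3, 28 in a clique of 35 nodes from 91110001 to 91500000 with Nr1h3, which encodes the oxysterol receptor LXR-alpha, and the DNA repair gene Ddb2, and 4 in the clique at F2. Of the 18 protein-coding genes listed with F2 in young, 14 were listed in one of the old network's other cliques and 4 in none.

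Tissue factor, the receptor that binds factor VII, is encoded by F3 on the plus strand of chromosome 3, from 121723537 to 121735052. In young it belonged to the largest clique of the network, with 193 nodes, and in old to one of 13 nodes, a log2 value of -3.79 (-2.72 relative to the mean clique size of each age). All 13 old nodes were bins of the young clique, so the old clique was a subset, with a Jaccard index of 0.0674. It ran from 121530001 to 121740000, and F3 lay at its distal end, with 3 of the 4 bins at the gene kept and the start-site bin among them. The old clique listed F3 with 4930432M17Rik, A730020M07Rik, A530020G20Rik and Gm43823, all of which the young clique listed too. The neighbour Abcd3, a peroxisomal transporter gene 57.8 kb from F3 by midpoints, was in an old clique of 77 nodes that began at 121760001, beyond F3, and Cnn3 and Alg14 on the other side were in one of 35 nodes. Of the other 180 young bins, 110 lay in other old cliques and 70 were absent from the old network.

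Plasminogen, whose active form plasmin digests fibrin, is encoded by Plg on chromosome 17, from 12378609 to 12419384. Its clique counted 50 nodes in young but 11 in old, a log2 value of -2.09 (-1.13 relative to the mean clique size of each age). At the gene itself no bin was lost. All 8 young nodes at Plg were kept, and 12415001 to 12420000 and 12420001 to 12425000 were nodes in old only, the first in the clique of Plg and the second in one of 2 nodes. The bins that left the clique lay far away: 40 of the 50 young bins lay over 200 kb from the gene, and 25 of these were still in the old network but in 4 other cliques. In old, Plg kept its listing with the kinase gene Map3k4 and the noncoding genes 4732491K20Rik and Gm24794. The imprinted receptor gene Igf2r and a group of genes around Tcp1 and Wtap, listed with Plg in young, were in old cliques of 4 and 12 nodes without it. The imprinted antisense transcript Airn, which overlaps Igf2r, was listed in no old clique. Bins that cover both cannot be assigned to either.

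Antithrombin, the main plasma inhibitor of thrombin and factor Xa, is encoded by Serpinc1 on the plus strand of chromosome 1, from 160978583 to 161002543. Its clique counted 37 young and 22 old nodes, a log2 value of -0.72, which came to -0.08 relative to the mean clique size of each age and turned to 0.09 relative to the median over genes listed at both ages. All 6 young nodes at the gene were kept. Of the 37 young bins 17 were in the old clique of Serpinc1, 9 in 4 other old cliques and 11 in none, and the Jaccard index was 0.405. The old clique covered 525 kb, about as far as the 500 kb of the young, with 11 bins of other cliques inside its span where the young had none. Prdx6, a peroxiredoxin gene 255 kb away, Zbtb37 and the noncoding host gene Gas5 were listed with Serpinc1 at both ages. Klhl20 was listed with it in young and in an old clique of 4 nodes.

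**Figure D3:**
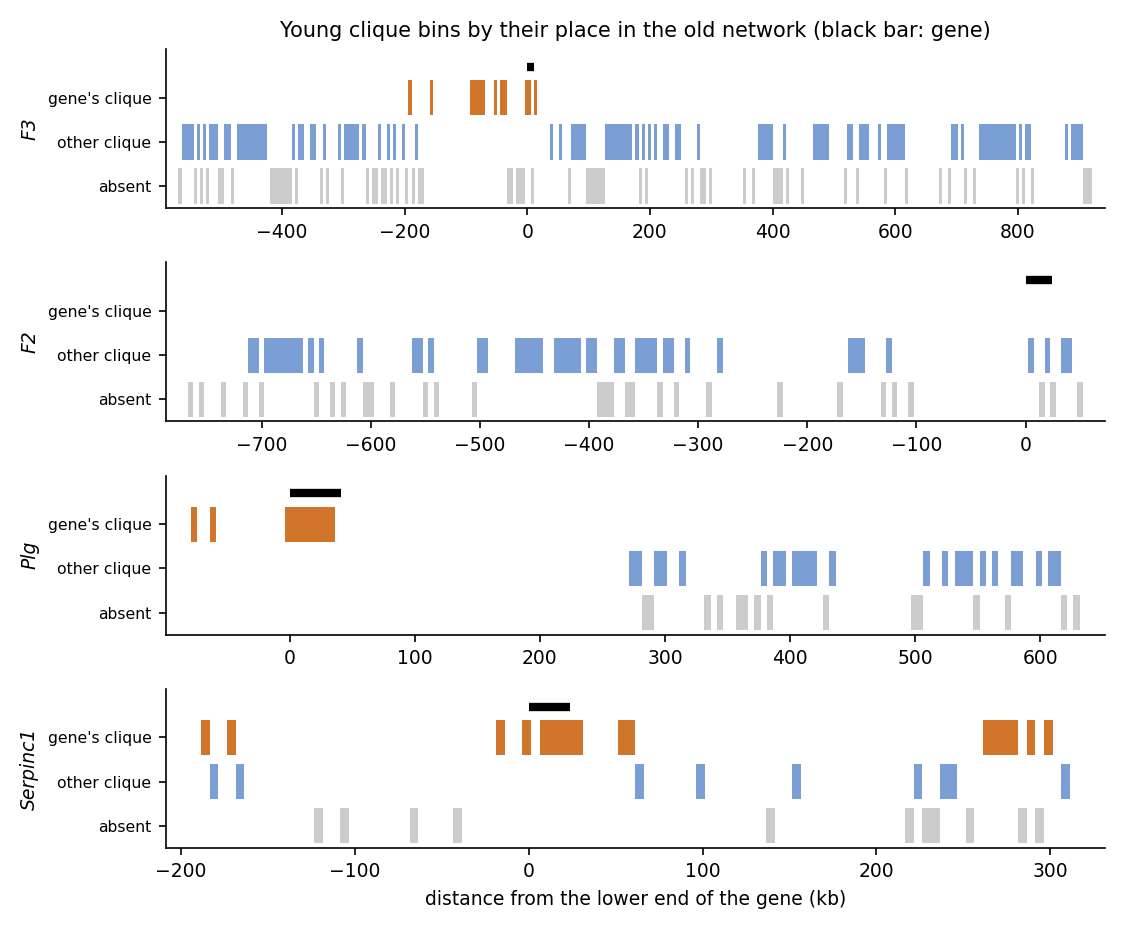
Bins of the young cliques of F3, F2, Plg and Serpinc1 by distance in kb from the lower end of the gene (black bar), in rows by their place in the old network: in the old clique that lists the gene, in another old clique, or absent. For Plg the bins of the gene's own old clique lie at and beside the gene, and F2 has none because no old clique lists it.

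Over the 6 young cliques that list members, 269 of 403 bins were in the old network (66.7%, 95% Wilson interval 62.0 to 71.2), beside 55.6% of all young bins. In the other direction 79 of the 89 bins of the 5 old cliques were in the young network (88.8%, 80.5 to 93.8), beside 78.5% of all old bins. These intervals cover counting error only and treat bins as independent, which neighbours are not. Over all young cliques the share kept went from 22.5% for those of 2 nodes to 67.2% for those of 50 to 99 nodes, so each member clique is set beside its size class. The fibrinogen clique kept 86.7% of its bins, where cliques of 10 to 19 nodes kept 53.3%. F7 with 80.6% and Serpinc1 with 70.3% stand beside 61.8% for cliques of 20 to 49 nodes, Plg with 70.0% and F2 with 61.0% beside 67.2% for 50 to 99 nodes, and F3 with 63.7% beside 66.5% for 100 nodes or more. The intervals of fibrinogen and F7 lay above the share of their size class, that of F7 narrowly with a lower limit of 63.7%. Those of the other 4 cliques included it. The size classes hold all young cliques, whether or not they list a gene, while every member clique lists genes.

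Bins at the genes were kept for most members but not for all. Of 35 young nodes in or within 2500 bp of a member that young cliques list, 32 (91.4%) were in the old network. This leaves out F10. The lost ones were at F2, which kept 2 of 4, and F3, which kept 3 of 4. Of the young bins at all listed protein-coding genes 64.1% were, a share that covers cliques of every size and is not matched to the size of the member cliques. The fibrinogen genes supply 10 of the 35. Of the nodes of the member cliques up to 50 kb from a listed member, 23 of 34 (67.6%) were in the old network. Further away the shares were 53 of 80 (66.2%) at 50 to 200 kb and 161 of 254 (63.4%) beyond 200 kb. The nodes at F10 that are not also at F7 count among those up to 50 kb, and all were kept. Most distant bins belonged to the cliques of F3 and F2. The kept bins were grouped differently from clique to clique. Those of fibrinogen and of F7 lay in 1 old clique each, those of F2 in 3, those of Plg and of Serpinc1 in 5 each and those of F3 in 6. Fibrinogen and F7 also had the smallest young member cliques. Over all young cliques, 50.0% of those with 10 to 19 nodes had their kept bins in 1 old clique. The share was 38.3% for 20 to 49 nodes, 17.5% for 50 to 99 and 0% for 100 or more. Sharing of 0.5 or more by the Jaccard index was seen for 4 of 7 members listed at both ages, the fibrinogen genes and F7, which make up 2 cliques, and for 39.4% of all genes listed at both ages.

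**Figure D4:**
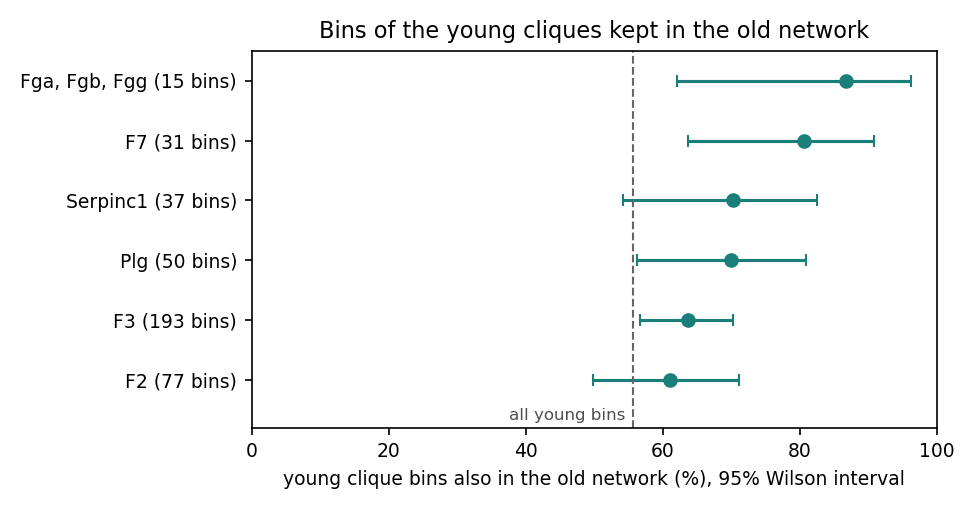
Share of the bins of each young member clique that are also nodes of the old network, with 95% Wilson intervals, and the share over all young bins (dashed line, 55.6%). Points run from 61.0% for F2 to 86.7% for the fibrinogen clique.

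Whether a member was listed followed the bin of its start site, which may only restate how the authors gave names. Cliques without a gene name carry the entry nonpromoter, so names appear to be given by promoter bins. The counts below describe that rule and are no separate result about the members. Of the 8 members with a start site in the promoter table, the bin was a node for 7 in young, all but F10, and the same 7 were listed. In old it was a node for 6, all but F10 and F2, and the same 6 were listed. Across all genes with 1 start site in the table, 95.8% of those with a node at the start were listed in young and 95.1% in old, compared with 21.0% and 22.1% where only a neighbouring bin was a node. F2 in old and F10 at both ages were of the latter kind. Both had other nodes in the gene.

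Other genes of coagulation and fibrinolysis came from a list of 43, of which 26 were listed at either age. Old cliques were smaller for 21 of the 26, equal for 1 and larger for 4, where 78.5% of all genes were smaller. But relative to the mean clique size of each age 13 were smaller and 13 larger, where 58.6% of all genes were smaller. A value at least 2-fold smaller was reached by 11 of the 26, beside 48.6% of all genes, and at least 2-fold larger by 2, beside 11.9%. The median log2 value over the 22 listed at both ages was -0.54, beside -0.63 over all such genes. Among the genes of the contact pathway, which starts clotting on charged surfaces, those that adjoin on a chromosome shared cliques. F11 and the prekallikrein gene Klkb1 shared 1 clique per age, of 33 young and 14 old nodes, and the kininogen genes Kng1 and Kng2 with Hrg, for histidine-rich glycoprotein, in one of 31 and 21. F12, for factor XII, which lies apart from them, was at 23 and 7 nodes. F5, for the cofactor of factor Xa, was at 23 and 17 nodes.

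Anticoagulant and antifibrinolytic genes differed among themselves. Proc, for protein C, was in cliques of 50 and 34 nodes and its cofactor gene Pros1 in cliques of 8 and 11. Serpinf2, for antiplasmin, had nearly the same clique at both ages, 22 and 21 nodes with a Jaccard index of 0.792, whereas the heparin cofactor gene Serpind1 was at 32 and 8. Serpina5, for the protein C inhibitor, had 45 young nodes in its clique, and the old network neither listed it nor held a node within 2500 bp of the gene. Serping1, for the C1 inhibitor, had the larger clique in old, 29 and 48 nodes. Serpina10, which acts with protein Z on factor Xa, was at 19 and 12 nodes, while Proz itself shared the F7 clique.

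Genes that serve many clotting factors also differed. In the vitamin K cycle, the carboxylase gene Ggcx was in cliques of 143 and 34 nodes and the reductase gene Vkorc1 in cliques of 30 and 19. Of the receptor pair that carries factors V and VIII out of the endoplasmic reticulum, Lman1 was at 8 and 3 nodes and Mcfd2 at 37 and 96. Fgl1, a fibrinogen-like hepatocyte protein gene, was at 88 and 35 and Pzp, a protease-trapping plasma protein gene, at 58 and 25. F8, for factor VIII, which comes mainly from endothelium, was in small cliques of 3 nodes at both ages. In young, F13b had a clique of 4 nodes and F2rl1 one of 2, neither in an old clique, and F2r was in an old clique of 2 nodes only. Listed at neither age were 17 genes, among them the plasminogen activator genes Plat and Plau, the endothelial genes Thbd, Procr and Tfpi, and also F9, for factor IX, and Cpb2, for a fibrinolysis inhibitor. Being unlisted did not mean that a gene had no nodes: Cpb2 had nodes at the gene in cliques of 13 and 6 nodes, the urokinase receptor gene Plaur in cliques of 37 and 35, Vwf, for von Willebrand factor, in cliques of 23 and 19, and Adamts13, for the protease that cleaves it, in cliques of 14 and 47.

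**Figure D5:**
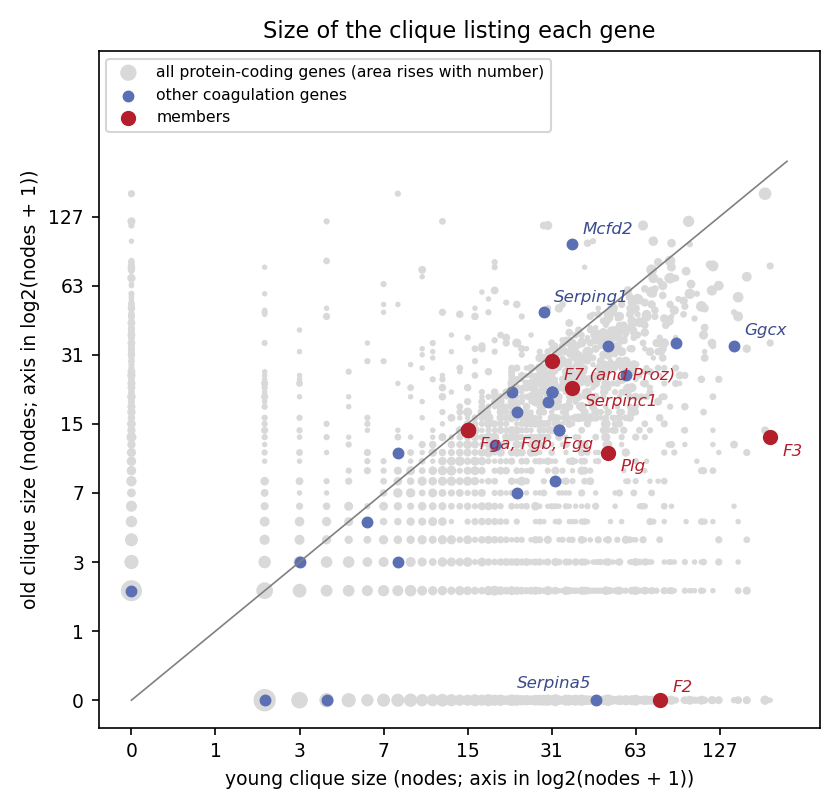
Size of the clique that lists each gene in young (x axis) and old (y axis), both on a log2(nodes + 1) scale, with 0 for a gene listed in no clique. Grey points are pairs of sizes, with area rising with the number of genes, over the 9596 protein-coding genes listed at either age. Blue points are the other coagulation genes and red the members, and the line marks equal size. The fibrinogen genes and F7 lie just under the line, and F3, Plg and F2 well below it.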

How the data were processed

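H3K27ac Hi-ChIP was measured in 12 libraries, 6 per age. Per the submitters' processing notes, Bowtie2 and HiC-Pro and the builds mm10 and GRCm38 were used. The loop caller, its thresholds, the clique method and the way libraries were combined are named in no source used here, and depth is unknown. The 4 deposited tables give, per the file headers, nodes with positions and cliques with node numbers, gene names and node names for each age.

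Members were matched to the gene entries, split at semicolons. For each gene the largest clique listing it was taken, and 0 where none did. Sizes were compared as log2((old + 1)/(young + 1)), with a pseudocount of 1, and no fold is given against 0. For scaled sizes the 1 was added after dividing. Under the mean it thus stands for 10.5 young and 6.75 old nodes, and under the median for 30 and 16. Bins were matched by identity on the 5 kb grid and genes were extended by 2500 bp. Gene names, coordinates (1-based) and start sites are from RefSeq GRCm38.p6. Bin matching was checked on a network with known changes. Python 3.11.15 and matplotlib 3.10.9 were used. The members and lists were chosen with earlier results of these data known. Genes named beside the members were those listed with them, nearest first, up to 6 at both ages and up to 4 at 1 age, and the 43 other coagulation genes. Genes beyond these (Psmc3, Celf1, Nr1h3, Ddb2, Alg14, Tcp1, Wtap) were chosen after their values were seen. Alternatives were gene span in place of listing, scaled sizes, a pseudocount of 5, minimum clique sizes and neighbouring bins.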

Additional observations from a re-analysis of the deposited data

How the results depend on the processing

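No paired analysis was possible because there is 1 network per age and no value carries a replicate number, and for the same reason no replicate could be left out. Reads per network are unknown, so differences in depth between the ages cannot be told apart from differences in contacts. Scaling turned the direction of several values. Relative to the mean clique size of each age, 4 members had the smaller clique in old, the median log2 value of the members was 0.13 and that of the wider list 0.02, with 13 genes smaller. Fga, Fgb and Fgg then had 0.34 and F7 0.43. Over all genes this scaling moved the median from -0.93 to -0.22. The pseudocount was added after dividing, so scaled values are also shrunk by its greater weight and do not show scaling alone. Relative to the median over genes listed at both ages, 3 members were smaller and the median was 0.21, with 0.32 for the fibrinogen genes, 0.47 for F7 and 0.09 for Serpinc1, and the median of all genes was -0.03. F3 and Plg stayed below 0 under every setting tried, from -3.79 to -2.04 and from -2.09 to -0.66.

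The members' median of -0.41 counts F2 as 0 in old. It was -0.09 by gene span, -0.36 with a pseudocount of 5, -1.41 with 1 value per clique and -2.09 without the fibrinogen genes, where 5 of 5 were smaller. By gene span the wider list had -0.76. Matching the same or a neighbouring bin gave 87.1% of young and 95.5% of old member bins, beside 75.1% and 87.9% of all bins, and the old clique sharing most bins held 40.7% of the young bins. The cause of these shifts was not tested beyond what each setting changes. Of all values recomputed under other settings, 12 turned in direction, 24 moved without turning and 38 stayed alike. All 12 turned under scaling by the mean or the median, and they count Fga, Fgb and Fgg singly though these share a clique.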
